A study of Mus musculus with 4 samples.

Results

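The genes described here are 10 members of the circadian clock (Arntl, Clock, Per1, Per2, Per3, Nr1d1, Nr1d2, Dbp, Tef and Bhlhe41), picked by gene name with no threshold on their values. All 10 were found among the 18674 gene names of the RNA-seq table, where they take 12 of 23750 rows because Per1 and Tef are listed with 2 transcripts each. A value of a gene is the mean of its rows.

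RNA of the lumbar spinal cord was sequenced from wild type (WT) mice and from G93A mice, a model of amyotrophic lateral sclerosis from a high-expressing strain that carries a human SOD1 transgene with the G93A mutation. Mice of either genotype were given spermidine (SD), a natural polyamine, or vehicle (PBS) by injection 4 times a week for 30 days, and the methods put tissue collection at 100 days of age. The methods name a B6/SJLF1 background for the breeding, and the treatment studies used males. Each of the 4 groups (WT vehicle and G93A vehicle, and their counterparts WT + SD and G93A + SD) has 1 library, and the number of animals in each is not given in the sources used here. No difference between groups therefore has a replicate check, no p-value can be given, and every comparison is between individual libraries. The time of day at which the tissue was taken is not given in the sources used here either, so that its part in any difference of these genes was not tested and cannot be told apart from genotype or SD.

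The values are RPKM (read counts divided by transcript length and by library depth), a unit read from the values. The depth is not stated. From the smallest steps of low values, each taken as 1 read pair, it was estimated at 36.8 M read pairs for WT vehicle and up to 38.6 M for G93A + SD (M, mega). The sources used here do not say whether both ends were read, so the pair is an assumed unit. On that scale the shallowest value of any member rests on about 401 read pairs (Arntl in G93A vehicle). As for the tissue label, the neuronal, motor neuron and glial markers found in the table were all detected, and none was below 0.1 RPKM in all 4 libraries. Under vehicle, 7 of 8 microglial genes were at least 1.5-fold higher in the G93A library, as were 13.5% of all names with a mean of at least 1 RPKM, and their summed level was 83.9 and 75.7 RPKM in the WT libraries (vehicle, then SD) against 386 and 388 RPKM in the G93A libraries. The 7 astrocyte genes summed to 1714 and 1569 RPKM against 3830 and 4328 RPKM in the same order. Most of that difference was Gfap, with 441 and 386 RPKM against 2269 and 2707 RPKM, and 4 of the 7 were at least 1.5-fold higher in G93A under vehicle. The 5 neuronal genes found in the table summed to 2033 and 2030 RPKM against 1347 and 1163 RPKM. In such bulk RNA, fewer cells of a type and less RNA per cell cannot be told apart.

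The circadian clock is a feedback loop of transcription that runs in nearly every cell. BMAL1 (the product of Arntl) and CLOCK form a dimer that binds E-box sequences and switches on the Per and Cry genes, whose proteins then shut the dimer off. The same dimer drives Nr1d1 and Nr1d2, encoding the repressors REV-ERBα and REV-ERBβ, which in turn hold Arntl down, and it drives Dbp, an activator that binds D-box sequences together with TEF and HLF. In most rhythmic tissues of the mouse, Arntl therefore peaks at the opposite time of day from Dbp, Nr1d1 and the Per genes. Per1 is also an early response gene that signals acting through CREB and the glucocorticoid receptor can switch on.

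The stretches upstream of the start sites of 4 members are shown as places to look for sequences such as the E-box. These members were chosen because they differ in how they behaved across the libraries (Per1 and Bhlhe41 higher in G93A, Per3 lower, Nr1d1 nearly level). Whether the loop acts at these stretches was not tested. The stretches come from RefSeq on build GRCm38.p6, run 5′ to 3′ towards the gene, and stop before the first base of any exon annotated in GENCODE M21. Capitals mark matches on either strand to the E-box CACGTG, its variant CACGTT, the D-box TTATGTAA, the REV-ERB binding core AGGTCA, and the core TGACGT of the cyclic AMP response element.
Per1, first start (chr11:69098699-69098947, plus strand): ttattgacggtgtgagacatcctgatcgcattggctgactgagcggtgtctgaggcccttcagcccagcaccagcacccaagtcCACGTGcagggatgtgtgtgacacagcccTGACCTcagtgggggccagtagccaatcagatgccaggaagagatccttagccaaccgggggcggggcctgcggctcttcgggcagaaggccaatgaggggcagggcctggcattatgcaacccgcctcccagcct
Per1, second start (chr11:69099902-69100151, plus strand): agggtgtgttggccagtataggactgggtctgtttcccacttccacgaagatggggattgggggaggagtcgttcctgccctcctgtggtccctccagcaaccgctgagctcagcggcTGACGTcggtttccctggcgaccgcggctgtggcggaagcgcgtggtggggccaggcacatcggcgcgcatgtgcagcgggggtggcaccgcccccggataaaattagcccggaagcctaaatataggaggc
Bhlhe41 (chr6:145865559-145865670, minus strand): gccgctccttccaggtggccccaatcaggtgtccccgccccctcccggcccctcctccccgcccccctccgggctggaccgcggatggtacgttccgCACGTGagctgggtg
Per3 (chr4:151044666-151044915, minus strand): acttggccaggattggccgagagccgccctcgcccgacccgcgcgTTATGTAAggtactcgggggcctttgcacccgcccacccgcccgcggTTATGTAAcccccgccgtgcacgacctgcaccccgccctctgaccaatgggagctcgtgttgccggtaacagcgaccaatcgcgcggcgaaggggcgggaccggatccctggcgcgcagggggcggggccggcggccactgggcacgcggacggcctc
Nr1d1 (chr11:98775378-98775627, minus strand): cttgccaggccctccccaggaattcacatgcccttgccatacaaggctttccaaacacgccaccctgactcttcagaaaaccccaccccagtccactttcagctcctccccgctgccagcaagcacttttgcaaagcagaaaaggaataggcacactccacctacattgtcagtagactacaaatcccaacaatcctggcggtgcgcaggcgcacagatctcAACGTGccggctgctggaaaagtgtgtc

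In the 250 bases before each start, 9 of the 10 members matched a RefSeq entry (all but Per2), with 14 windows in all because Arntl, Clock, Per1 and Tef have several starts. The E-box occurred in 4 of these windows (first window of Per1, both of Tef, and Bhlhe41), and 6.02% of the 32817 upstream windows of all genes hold it. The first window of Tef lies wholly within annotated exons of Tef. Of its 250 bases, 191 also lie in exons of Gm17597 on the opposite strand. The variant CACGTT was found before Nr1d1 and is held by 3.85% of all windows. Per3 had the D-box at 2 places, 205 and 158 bases before the start, while 0.817% of all windows hold it. The core AGGTCA lay before Per1, Clock and Nr1d2 (14.0% of all windows), and the core TGACGT before the second start of Per1 (6.46%). A match is only a description of these letters in these windows. The Per3 window lies within the annotated span of Camta1 but in none of its exons, and both windows of Per1 lie within the annotated span of Per1.

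Across the 4 libraries, the clock genes ranged from nearly level (Nr1d1, Per2 and Arntl) to a difference of nearly 2-fold (Per1). The ratio of the highest to the lowest library was 1.05 for Nr1d1, 1.07 for Per2, 1.08 for Arntl, 1.14 for Clock, 1.19 for Tef, 1.32 for Dbp, 1.34 for Per3, 1.41 for Nr1d2 and 1.42 for Bhlhe41. Only Per1, with 1.99, went beyond 1.5. For comparison, the median of this ratio was 1.30 over the 12987 gene names with a mean of at least 1 RPKM, and 5 of the 10 members lay below it. The ratio of Nr1d1 was larger than that of only 1.69% of these names, while that of Per1 was larger than that of 87.0%.

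**Figure D1:**
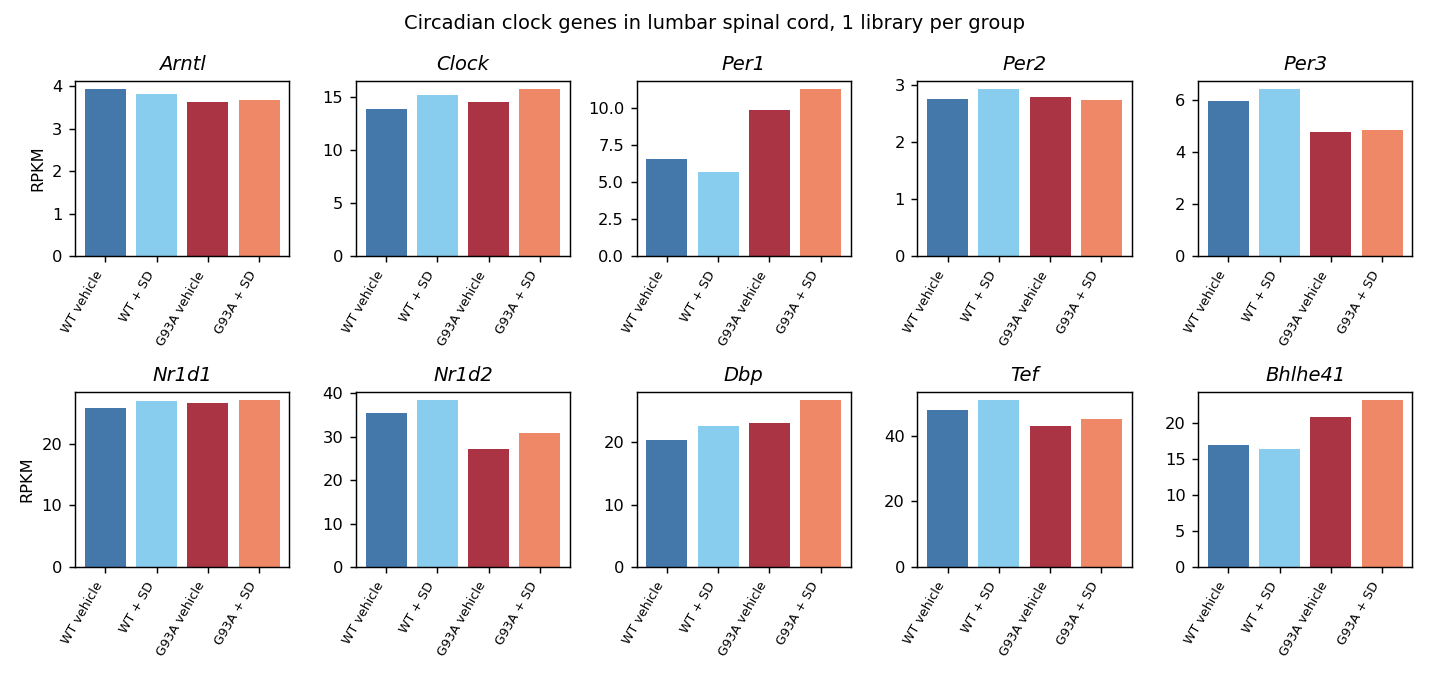
Level of each of the 10 clock genes (RPKM, vertical axis starting at 0 and scaled for each gene) in the 4 libraries (WT in blue, G93A in red, SD in the lighter shade), 1 bar per library and no error because there are no replicates. Arntl, Per2 and Nr1d1 are nearly level, Per1 and Bhlhe41 are higher in both G93A libraries, and Per3 and Nr1d2 are lower in both.

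By mean RPKM, a measure per length, Tef was the highest member with 46.8, followed by Nr1d2 with 33.0, Nr1d1 with 26.6, Dbp with 23.2, Bhlhe41 with 19.4, Clock with 14.9, Per1 with 8.32, Per3 with 5.52, Arntl with 3.76 and Per2 with 2.80. Several neighbours in this order overlapped over the libraries. Dbp at its highest (26.8 RPKM) exceeded Nr1d1 at its lowest (25.8 RPKM). The ranges of Dbp and Bhlhe41 and those of Per1 and Per3 also overlapped. Nr1d2 at its lowest (27.3 RPKM) was just above Nr1d1 at its highest (27.1 RPKM). The ranges of Tef, Clock, Arntl and Per2 overlapped with that of no neighbour.

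The activators of the loop differed little between the libraries. Arntl, on chr7:113207465-113314126 (plus strand, GRCm38), had 3.93 (vehicle) and 3.82 (SD) RPKM in WT mice, and 3.63 and 3.69 RPKM in G93A mice. Both G93A libraries were below both WT libraries, but by less than 1.1-fold. Clock, encoding the partner of BMAL1 and located at chr5:76209868-76304792 (minus strand), had 13.9 RPKM with vehicle and 15.2 with SD in WT, against 14.6 and 15.8 in G93A. Its genotypes overlapped, and its log2 fold change was 0.13 for SD in WT and 0.11 for SD in G93A. Neither activator came near 1.5-fold in any comparison.

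Among the period genes, which encode the repressors of the dimer, each of the 3 behaved differently. Per1, on chr11:69095217-69109960 (plus strand), had 6.56 (vehicle) and 5.65 (SD) RPKM in WT mice, and 9.85 and 11.2 RPKM in G93A mice. Both G93A libraries were thus well above both WT libraries. Under vehicle the G93A level was 1.502-fold the WT level, a log2 fold change of 0.59 that lies right at the 1.5-fold threshold, and under SD it was 1.99-fold the WT level (log2 fold change of 0.99). After scaling by median ratios the first of these was 1.44-fold, and with a pseudocount of 0.1 RPKM it was 1.49-fold, so this call does not hold under those settings. Its 2 transcripts gave the same picture, with 9.86 and 9.85 RPKM in G93A vehicle.

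Per2, on chr1:91415982-91459324 (minus strand), had 2.75 RPKM with vehicle and 2.93 with SD in WT, against 2.79 and 2.75 in G93A. No group stood apart. Per3, on chr4:151003652-151044665 (minus strand), was the member of the family with lower values in G93A, with 5.99 (vehicle) and 6.42 (SD) RPKM in WT mice, and 4.80 and 4.88 RPKM in G93A mice. The G93A level was 0.802 times that of WT under vehicle and 0.759 times under SD, below the threshold in either pair.

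The 2 REV-ERB genes, which encode nuclear receptors that bind heme and repress Arntl, also parted. Nr1d1, on chr11:98767932-98775333 (minus strand), had 25.8 RPKM with vehicle and 27.0 with SD in WT, against 26.6 and 27.1 in G93A, with overlapping genotypes. Its exons share 263 bases (8.55%) with Thra on the opposite strand, which had between 61.4 and 67.4 RPKM, and reads of the shared stretch cannot be assigned to either gene because no source says that strand was used in counting. Nr1d2, on chr14:18204054-18239127 (minus strand), had 35.4 (vehicle) and 38.5 (SD) RPKM in WT mice, and 27.3 and 30.9 RPKM in G93A mice. Both G93A libraries were below both WT libraries, and the WT level was 1.30-fold that of G93A under vehicle and 1.24-fold under SD.

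The output activators of the PAR bZIP family, whose rhythm carries the clock to many metabolic genes, stayed below 1.5-fold in every comparison. Dbp, on chr7:45705088-45710203 (plus strand), had 20.3 RPKM with vehicle and 22.7 with SD in WT, against 23.1 and 26.8 in G93A. Each G93A library was above each WT library, although G93A vehicle exceeded WT + SD only slightly and no longer did after median-ratio scaling. Its exons share 539 bases (18.0%) with Sphk2 on the opposite strand, whose level ran from 8.75 RPKM in WT vehicle to 9.91 RPKM in G93A + SD. Tef, on chr15:81802421-81826863 (plus strand), had 48.0 (vehicle) and 51.0 (SD) RPKM in WT mice, and 43.0 and 45.2 RPKM in G93A mice, and so was lower in both G93A libraries by a log2 fold change of -0.16 under vehicle and -0.17 under SD.

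Bhlhe41 (also known as Dec2), a repressor that competes with the BMAL1 dimer for E-boxes, lies on chr6:145858243-145865558 (minus strand). It had 16.9 RPKM with vehicle and 16.4 with SD in WT, against 20.9 and 23.3 in G93A. Both G93A libraries were higher, by 1.24-fold under vehicle and 1.42-fold under SD, which stays below the threshold. For Bhlhe41, 19.0% of the exonic bases are shared with Gm43909, a provisional transcript annotated on the opposite strand. For Tef and Arntl such antisense overlaps cover 2.45% and 0.439% of the exonic bases, so that the levels of these 5 genes are uncertain by an amount that also depends on the level of the opposite gene and was not estimated.

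The genotypes were compared first under vehicle. In G93A vehicle against WT vehicle, 1 of the 10 members (Per1) was at least 1.5-fold higher and 0 were at least 1.5-fold lower. Of all 18674 gene names, 20.3% were higher and 10.3% lower by this rule, and of the 12987 names with a mean of at least 1 RPKM (which include all 10 members), 13.5% were higher and 4.68% lower. A count of 1 in 10 is near these shares. The median log2 fold change of the members was 0.032, against 0.051 over the expressed names.

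Under SD the counts were the same. In G93A + SD against WT + SD, Per1 was again the 1 member at least 1.5-fold higher, and 0 were lower by that size. In this pair 23.2% of all names were higher and 12.5% lower, and 16.3% and 8.12% of the expressed names. The median log2 fold change of the members was -0.023, against 0.048 over the expressed names. This pair of libraries shares none with the vehicle pair. Of the 10 members, 5 were higher in G93A in both pairs (Clock, Per1, Nr1d1, Dbp and Bhlhe41), 4 were lower in both (Arntl, Per3, Nr1d2 and Tef), and Per2 changed sign. After median-ratio scaling, 3 members were higher in both pairs (Per1, Dbp and Bhlhe41) and 6 lower in both (Arntl, Per2, Per3, Nr1d1, Nr1d2 and Tef), and Clock changed sign. Of the expressed names, 84.9% had the same sign in both pairs.

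**Figure D2:**
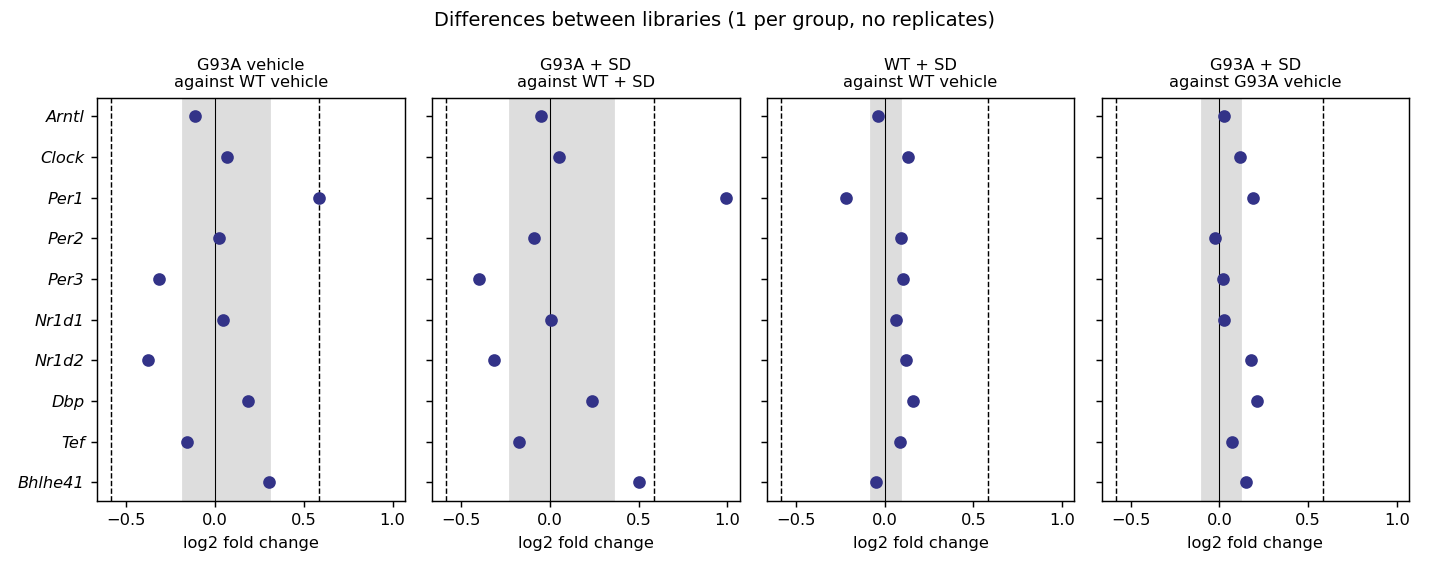
Log2 fold change (horizontal axis) of each clock gene in the 4 comparisons, 1 point per gene. The dashed lines mark 1.5-fold and the grey band spans the middle 50% of the 12987 gene names with a mean of at least 1 RPKM. Per1 is the only member at or beyond a dashed line, in the 2 comparisons of genotype.

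Both G93A libraries lay above both WT libraries for 3 members (Per1, Dbp and Bhlhe41) and below them for 4 (Arntl, Per3, Nr1d2 and Tef). Of the expressed names, 43.7% lay above in this sense and 32.6% below, so that such a separation was common in these libraries. The 2 libraries of a genotype differ in SD and are not replicates.

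No member reached 1.5-fold between SD and vehicle. In WT + SD against WT vehicle, 0 members were at least 1.5-fold higher and 0 lower, where 7.18% of all names were higher and 8.55% lower, and 0.909% and 1.36% of the expressed names. The largest differences were those of Per1, whose log2 fold change was -0.22, and Dbp, with 0.16. In G93A + SD against G93A vehicle, 0 members were higher and 0 lower by 1.5-fold, where 8.71% and 7.31% of all names and 1.34% and 1.04% of the expressed names were. Here 9 of the 10 members had slightly higher values with SD, up to a log2 fold change of 0.21 for Dbp, and Per2 was lower by a log2 fold change of -0.022. In WT, 7 members were higher with SD and 3 lower. Across the genotypes, 6 members were higher with SD in both and 4 changed sign, where 54.2% of the expressed names had the same sign in both. The share of expressed names with higher values was not counted. The median of the members was 0.088 in WT and 0.093 in G93A, against 0.015 and 0.0088 over the expressed names.

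Since Arntl peaks opposite to Dbp, Nr1d1 and the Per genes in rhythmic tissues, each member was also set against Arntl in the same library, which removes any scaling of a whole library. The RPKM of Dbp was 5.17 (vehicle) and 5.94 (SD) times that of Arntl in WT, and 6.37 and 7.26 times in G93A. For Nr1d1 this ratio was 6.59, 7.06, 7.35 and 7.35 in the same order. For Per2 it was 0.701, 0.766, 0.770 and 0.745. These 3 ratios were lowest in WT vehicle. The ratio for Per3, in contrast, was 1.53, 1.68, 1.32 and 1.32, and that for Nr1d2 was 9.02, 10.1, 7.52 and 8.38, both lower in the G93A libraries. Only the ratio for Per1 moved by more than 1.5-fold, from 1.67 in WT vehicle and 1.48 in WT + SD to 2.72 in G93A vehicle and 3.04 in G93A + SD.

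**Figure D3:**
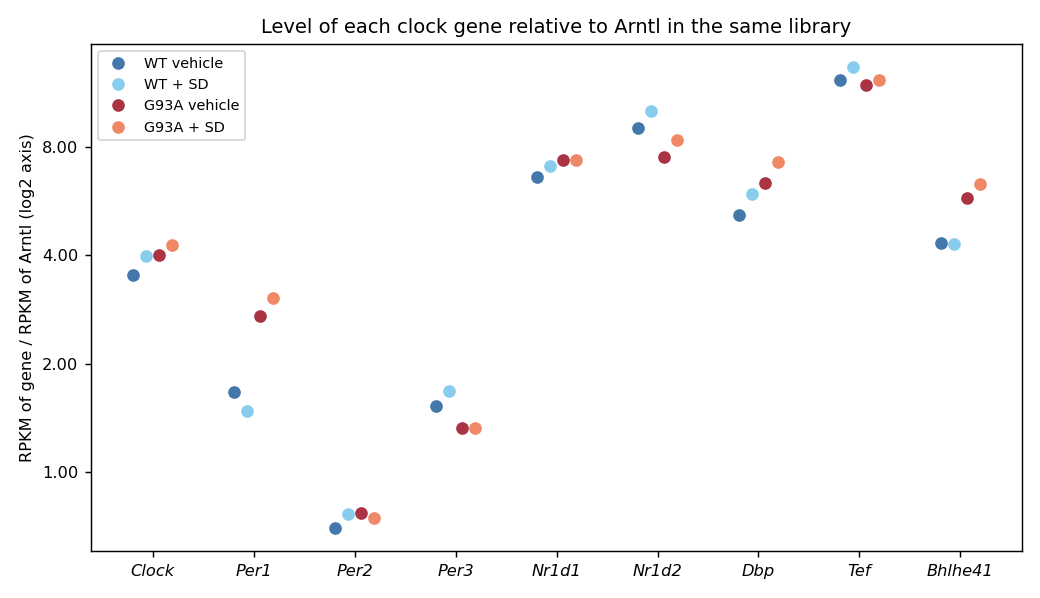
RPKM of each other clock gene divided by that of Arntl in the same library (vertical log2 axis), 1 point per library, with WT in blue and G93A in red and the lighter shade for SD. Per1 and Bhlhe41 are set apart upwards in the G93A libraries and Per3 and Nr1d2 downwards, while Per2 and Nr1d1 move little.

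The remaining genes of the pathway were read from a list of 17 (among them the cryptochromes, Hlf, kinases and ubiquitin ligase subunits), all of which were found, Ciart under its older name Gm129. In G93A vehicle against WT vehicle, 4 of the 17 were at least 1.5-fold higher and 0 lower, and the median log2 fold change was 0.047. In this pair 20.3% of all names and 13.5% of the expressed names were higher. In G93A + SD against WT + SD, 5 were higher and 1 lower, with a median of 0.031, where 16.3% of the expressed names were higher and 8.12% lower. In both pairs, Nfil3, Bhlhe40, Npas2 and Timeless were higher. After median-ratio scaling, Npas2 was no longer past the threshold under vehicle, and Fbxl21 joined the lower genes under SD. Nfil3, encoding the repressor E4BP4 that competes with DBP and TEF at D-boxes, had 3.38 (vehicle) and 3.52 (SD) RPKM in WT mice, and 5.99 and 6.90 RPKM in G93A mice. Bhlhe40, the paralog of Bhlhe41, had 22.5, 22.3, 36.4 and 40.0 RPKM in the same order, and the 2 genes thus leaned the same way.

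Npas2, encoding a protein that can stand in for CLOCK, had 1.40 RPKM with vehicle and 1.38 with SD in WT, against 2.16 and 2.40 in G93A. Timeless, best known for its role at the replication fork in mammals, had 0.826, 0.654, 1.63 and 1.39 RPKM in the same order. All 4 genes were higher in both G93A libraries than in either WT library. Under SD, Rorb (1.65-fold), encoding a receptor that binds the same core as the REV-ERB proteins, was also higher in G93A, and its paralog Rora was lower, with 5.07 (vehicle) and 5.79 (SD) RPKM in WT mice, and 3.57 and 3.76 RPKM in G93A mice. Between SD and vehicle, 0 of the 17 genes reached 1.5-fold in either genotype, where in WT 0.909% of the expressed names were higher and 1.36% lower, and in G93A 1.34% and 1.04%. Hlf, the third PAR bZIP gene, was lower in both G93A libraries, as Tef was, with 11.9, 13.4, 9.26 and 9.95 RPKM.

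**Figure D4:**
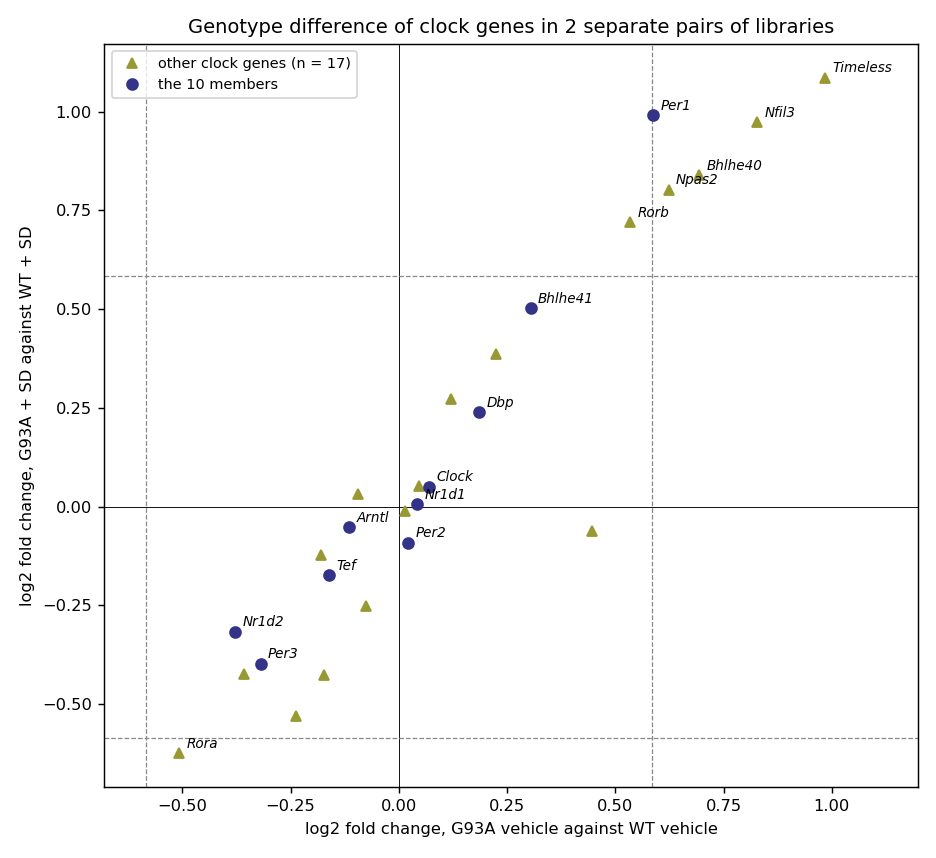
Log2 fold change of G93A vehicle against WT vehicle (horizontal axis) and of G93A + SD against WT + SD (vertical axis) for the 10 members (circles) and the 17 other clock genes (triangles), which come from 2 separate pairs of libraries. Dashed lines mark 1.5-fold. Per1 lies with Npas2, Nfil3, Bhlhe40 and Timeless at the upper right, and Arntl, Clock, Per2 and Nr1d1 lie near the origin.

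Grouped by their usual phase, the genes were read as 2 blocks. Of the 5 genes that peak with or near Arntl (Arntl, Clock, Npas2, Nfil3 and Cry1), 2 were at least 1.5-fold higher in G93A under vehicle, 4 were above 0 and 1 below 0, and the median log2 fold change was 0.12. Of the 10 that peak towards the other side of the day (Per1, Per2, Per3, Nr1d1, Nr1d2, Dbp, Tef, Hlf, Bhlhe41 and Ciart), 1 was higher by that size, 5 were above 0 and 5 below 0, and the median was -0.027. Of the expressed names, 13.5% were higher by that size, and their median was 0.051. Npas2, 1 of the 2 higher genes of the first block, fell below 1.5-fold after median-ratio scaling. Under SD, 4 of the 5 genes were above 0 with a median of 0.27, and 4 of the 10 with a median of -0.13. The median of the expressed names was 0.048 in this pair. Between SD and vehicle, 0 genes of either block reached 1.5-fold, as few of the expressed names did (the shares given above for the 17 genes).

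Other genes that signals can switch on quickly, as they can Per1, were read beside it. Of 7 immediate early genes, 5 were at least 1.5-fold higher in G93A under vehicle and 0 lower, with a median log2 fold change of 1.16, where 20.3% of all names (13.5% of the expressed names) were higher and 10.3% (4.68%) lower. Fos had 5.78 RPKM with vehicle and 8.37 with SD in WT, against 23.4 and 30.3 in G93A, and Junb had 2.28, 2.55, 8.27 and 9.38 RPKM. In G93A + SD against WT + SD, 3 of the 7 were higher and 1 (Arc) was lower, with a median of 0.57, where 23.2% of all names (16.3% of the expressed names) were higher and 12.5% (8.12%) lower. Their part in the values of Per1 was not tested, nor was that of the higher microglial and astrocyte levels.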

How the data were processed

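The authors deposited 1 table for the series, with 1 column of values per library and RefSeq transcripts with gene symbols as rows. Its values were taken as RPKM deposited by the authors, a unit inferred here because no header names it. The methods name STAR for aligning 53 bp reads of polyA RNA (mouse build GRCm38) and HTSeq with Ensembl genes for counting. How the RPKM values were then made is not given in the sources used here. Ratio columns made by the authors were not used.

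Values of a name are the mean of its rows. Levels were compared as plain ratios without a pseudocount, and 1.5-fold or more, the study's own threshold, counted as higher or lower. With 1 library per group there was no test. A further gene of the pathway list is not reported here and enters no count. The members are set by name alone, but they and the lists were proposed with earlier results of these data known. Named genes are the members, genes of the pathway list and of a list of rhythmic output genes beyond 1.5-fold in any comparison, and the 5 profiles nearest to Dbp among names with a mean of at least 5 RPKM. Hlf, Fbxl21, Gfap and the genes named from the immediate early and glucocorticoid lists were chosen after their values were seen. Other genes are named only as list members or as genes that overlap a member or its window. Transcript lengths and positions came from GENCODE M21 (97.0% of rows matched a length), and depth was read from the commonest product of a low value and a length above 500 bases. Upstream windows came from RefSeq (GRCm38.p6). The scripts, tested on simulated data, ran under Python 3.11.15 with pandas 2.3.3 and numpy 2.4.6.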

Additional observations from a re-analysis of the deposited data

Results flagged for a closer look

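Differences that pointed in opposite directions in the 2 genotypes or under the 2 treatments were looked at again. With 1 library per group none of them was tested, and none reached 1.5-fold. The planned flag also asked that the 2 log2 fold changes differ by at least 0.585 (1.5-fold), and no member met it. The members below differ in sign only. Of the expressed names, 54.2% had the same sign in the 2 comparisons of SD, and 84.9% in the 2 comparisons of genotype. Per1 was lower with SD in WT (log2 fold change of -0.22) and higher with SD in G93A (0.19), so that these differ by 0.40 on the log2 scale. Bhlhe41 went the same way, with -0.046 in WT and 0.15 in G93A, a difference of 0.20. Arntl had -0.038 and 0.024, which differ by 0.063. Per2 had 0.090 with SD in WT and -0.022 in G93A, and 0.021 for genotype under vehicle and -0.091 under SD, each pair differing by -0.11.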

How the results depend on the processing

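Per1 was the only member to reach 1.5-fold, and for a member with 1 row the highest-row setting repeats the main value. A fold change that stays below 1.5-fold is therefore weak evidence of stability. Of 160 recalculated log2 fold changes of single members, 157 stayed on the same side of 1.5-fold. The other 3 were all of Per1 in G93A vehicle against WT vehicle, whose fold of 1.502 became 1.44 after median-ratio scaling, 1.49 with a pseudocount of 0.1 RPKM and 1.44 with 1 RPKM, so that 0 members were higher in each of these settings. A threshold of 2-fold left 0 members higher in either comparison of genotype. At a lower threshold of 0.32 on the log2 scale, 1 member (Nr1d2) was lower in G93A vehicle, and under SD 2 members (Per1 and Bhlhe41) were higher and 1 (Per3) was lower in G93A. At that threshold 15.0% of expressed names were lower under vehicle, and 27.2% were higher and 18.9% lower under SD. Taking any row, the highest row, or only members with a mean of at least 5 RPKM left every count as it was. These settings had little room to change a count, because Per1 has a mean of 8.32 RPKM and only Per1 and Tef have 2 rows. The 4 fold changes (Per2 and Nr1d1 under vehicle, Clock and Nr1d1 under SD, all for genotype) that changed sign after median-ratio scaling were near 0. That scaling shifts the median log2 fold change of expressed names by -0.064 and -0.066 in the comparisons of genotype. With that scaling, in a count added after seeing the data (as were those of the other gene lists), both G93A libraries were above both WT libraries for 2 members in place of 3, and below them for 6 in place of 4, where 36.5% and 39.6% of expressed names were. No paired analysis was possible because each group has 1 library, and for the same reason no library could be left out. The estimated depth gives counting error for the sequenced libraries only and says nothing of the spread between animals.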

Other observations

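A list of 6 genes that are rhythmic or clock-driven in many tissues was also read. Of these, 2 were at least 1.5-fold higher in G93A than in WT under vehicle, and the same 2 under SD. By that rule 13.5% of the names with a mean of at least 1 RPKM were higher under vehicle and 16.3% under SD, shares that also serve for the next list. Usp2, encoding a ubiquitin protease, had 4.18 (vehicle) and 4.78 (SD) RPKM in WT mice, and 6.87 and 7.83 RPKM in G93A mice. Tspan4, encoding a tetraspanin, had 7.94, 8.10, 21.5 and 27.2 RPKM in the same order. The other 4 (Tsc22d3, Wee1, Nampt and Cirbp) did not reach 1.5-fold in any comparison, although Tsc22d3 and Wee1 were lower by that size in G93A under SD after median-ratio scaling.

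Of 6 genes that glucocorticoids induce, 4 were at least 1.5-fold higher in G93A than in WT under vehicle and 3 under SD, and their direction was not uniform. Of the 4, Zbtb16 was below the threshold after median-ratio scaling. Sgk1 had 36.5 RPKM with vehicle and 18.4 with SD in WT, against 75.7 and 78.8 in G93A, whereas Fkbp5 had 7.82, 8.04, 8.11 and 9.90 RPKM. Between SD and vehicle, Zbtb16 was 1.87-fold higher with SD in WT and 1.55-fold higher in G93A, and Sgk1 was at 0.504 times its vehicle level in WT. Thus 1 of the 6 was higher and 1 lower in WT, where 0.909% and 1.36% of the expressed names were. In G93A 1 was higher and 0 lower, where 1.34% and 1.04% were. Tsc22d3 had 63.7, 68.7, 50.5 and 46.9 RPKM, lower in both G93A libraries. Oligodendrocyte genes summed to 8814 and 9067 RPKM in the WT libraries (vehicle, then SD) and 7172 and 6573 RPKM in the G93A libraries, motor neuron genes to 79.1, 71.9, 60.3 and 44.2 RPKM in the order used for Tsc22d3, and endothelial genes to 35.0, 32.5, 32.0 and 24.8 RPKM.

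Among 8846 names, those with the profile nearest to that of Dbp over the 4 libraries were Fam36a, Pfdn5, Gm5643, Hnrnpa1 and Traf6, at distances of 0.0080 to 0.033 on the log2 scale. Fam36a, for example, had 22.1 (vehicle) and 24.9 (SD) RPKM in WT mice, and 25.3 and 29.3 RPKM in G93A mice. With 4 libraries such likeness is a description only.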
